A study of Mus musculus with 15 samples.

Results

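The comparison set 3 arrays of mice at postnatal day 21 (P21) against 3 arrays at postnatal day 15 (P15), chosen by the age in their titles, across all 22092 probe sets. These are 6 of the 15 arrays of the series, which also holds 3 arrays each at P0, P7 and P56. Every mouse at every age carried Tg(Pcp2-L10a-Egfp), a transgene in which the Pcp2 promoter drives the ribosomal protein L10a fused to green fluorescent protein, so no group without the transgene enters any value below. At P21 and at P15 alike, cerebella were pooled, and RNA held by tagged ribosomes was pulled down with antibodies against the fluorescent protein (translating ribosome affinity purification) and hybridised to Affymetrix arrays. Which cells make the tag depends on that promoter. Strain, sex and the number of cerebella in a pool are not given in the labels, nor is it stated that each array had a pool of its own, so the p-values may measure only technical spread.

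Purkinje cells are the inhibitory output neurons of the cerebellar cortex. They receive many weak inputs from the parallel fibres of granule cells and, once mature, a strong input from a single climbing fibre that rises from the inferior olive in the brainstem. In the third postnatal week of the mouse the last granule cells leave the external germinal layer and surplus climbing fibres are withdrawn. In that week axons also acquire myelin and pups begin to eat by themselves. The cerebellum also receives serotonin, noradrenaline and acetylcholine fibres from brainstem neurons, whose cell bodies lie outside it.

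Values are log2 signals of a probe set as deposited, and a change is the P21 mean minus the P15 mean on that scale, with the standard error (SE) of the fit. A probe set was called when limma gave an adjusted p under 0.05 (Benjamini-Hochberg over all probe sets). Of the 22092 probe sets, 2322 were called higher at P21 (10.5%) and 1581 lower (7.16%). Most changes were small, with a median of 0.38 among the called rises and −0.35 among the called falls. Only 71 probe sets rose by at least 1 and 17 fell by at least 1. Of all 22092, 4011 were higher and 3218 lower at P21 with no overlap between the ages. The same held for 2288 of the 2322 called rises and 1517 of the 1581 called falls. For a called gene, no overlap is thus the usual case and adds little. Taken with 1 probe set per gene, 2048 of 19500 genes were higher (10.5%) and 1352 lower (6.93%), and the median change over all genes was 0.01. The counts of every list below are to be read beside these shares of all genes. All 38 lists were chosen with earlier results of these data known, so their shares are descriptive. The plot of change against level shows the rises and falls at all but the dimmest levels.

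**Figure D1:**
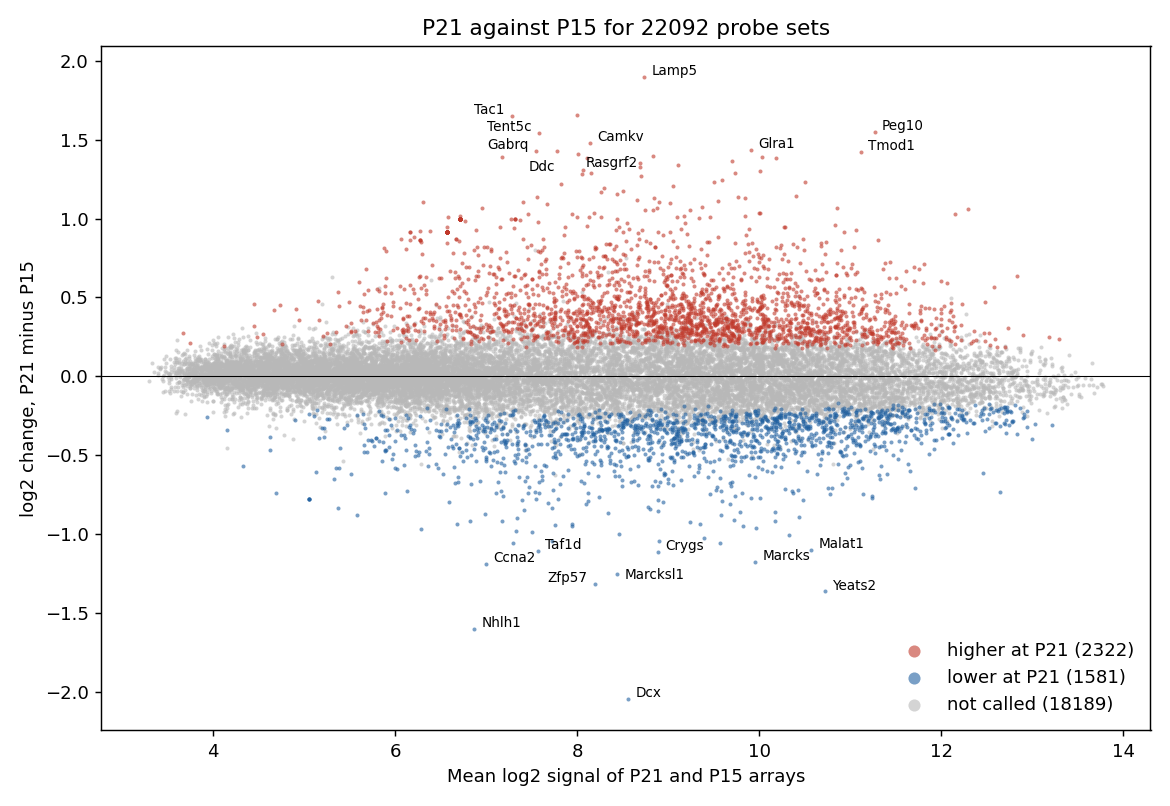
Change of each of the 22092 probe sets (log2, P21 minus P15, vertical axis) against its mean log2 signal over the P21 and P15 arrays (horizontal axis). Red points are the 2322 called higher at P21, blue points the 1581 called lower and grey points those not called, and the 10 largest rises and 10 largest falls among the genes named by rule carry their names, from Lamp5 at 1.90 to Dcx at −2.05.

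The arrays of an age were alike. Correlations over probe sets were 0.996 to 0.997 among the P21 arrays and 0.998 among the P15 arrays, and array medians were 7.82 to 7.85 at P21 and 7.77 to 7.81 at P15. With the median of every array set to 0, the split of calls turned from 2322 higher and 1581 lower (59.5% higher) to 1885 higher and 2226 lower (45.9% higher). P21 replicate 3 gave the highest of the P21 values in 69.6% of the called rises, and its median distance from the P15 mean over these was 0.47, against 0.35 for replicate 1 and 0.36 for replicate 2. Without it 1717 probe sets were called higher. Where a list's count of 3 or more below moves by more than 1.5 times when an array is left out, the lower count and that array are given. The sources name neither scan dates nor batches, so batch and age cannot be told apart. Array lower quartiles were 5.86 to 6.01, and signals beneath them are not shown to exceed background.

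The 2 genes of the transgene were read first. Pcp2, the Purkinje cell gene whose promoter drives the tag, had signals of 13.26, 13.20 and 13.20 at P21, against 13.23, 13.24 and 13.20 at P15. The ages overlapped and the change was 0.0003 (SE 0.06, adjusted p 0.998), with a sign that turned in 3 of 15 alternatives. Rpl10a, which encodes the tagged protein's endogenous form and has near-identical pseudogenes, had 12.65, 12.63 and 12.57 at P21, against 12.83, 12.81 and 12.80 at P15. It was lower on every P21 array (change −0.19, SE 0.06, adjusted p 0.0251), and its 3 other probe sets gave −0.20 to −0.21, but the call was lost in 5 of 15 alternatives, among them without P21 replicate 3. Nothing here measures how much tagged protein the cells held at either age.

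Few genes that mark Purkinje cells were called. Among 30 measured there was 1 rise and 1 fall, smaller shares than the 10.5% higher and 6.93% lower of all genes. The median change was −0.05. Their mean log2 signal was 12.44 ± 0.04 at P21 and 12.47 ± 0.02 at P15 (SD, n = 3 arrays each). Fam107b had 10.75, 10.47 and 10.64 at P21, against 9.93, 9.79 and 9.91 at P15. It rose by 0.74 (SE 0.10, adjusted p 4.94e-05) with no overlap between ages. Slc1a6, the glutamate transporter EAAT4 of Purkinje cell spines, had 12.25, 12.29 and 12.39 at P21, against 12.69, 12.72 and 12.55 at P15, and fell by 0.34 (SE 0.08, adjusted p 0.0043). Calb1, Pvalb and Car8, which encode calcium-binding proteins and an inhibitor of calcium release, had differences of −0.18, −0.06 and −0.06 and were not called.

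The largest rises among named genes were of genes not used as Purkinje cell markers. Lamp5, a membrane protein of GABA neurons, had signals of 9.63, 9.53 and 9.90 at P21, against 7.94, 7.73 and 7.70 at P15. Every P21 array was above every P15 array, and the change of 1.90 (SE 0.12, adjusted p 1.13e-07) is 3.73-fold. Tac1, the precursor of the neuropeptide substance P, had 8.24, 7.53 and 8.56 at P21, against 6.57, 6.30 and 6.51 at P15, a change of 1.65 (SE 0.18). Its P21 arrays spread widely but did not reach the P15 arrays. Peg10, an imprinted gene derived from a retrotransposon, had 11.89, 11.93 and 12.31 at P21, against 10.48, 10.33 and 10.66 at P15, a change of 1.55 (SE 0.14). Glra1, the alpha1 subunit of the glycine receptor of the adult hindbrain and spinal cord, had 10.56, 10.45 and 10.88 at P21, against 9.12, 9.14 and 9.32 at P15. That is a rise of 1.44 (SE 0.13, adjusted p 1.39e-06), or 2.70-fold, with no overlap.

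Among the other named rises were signalling and metabolic genes. Tent5c, a poly(A) polymerase, rose by 1.54, Camkv, a kinase-like protein of synaptic vesicles, by 1.48, and Rasgrf2, an exchange factor for Ras, by 1.41. Gabrq, the theta subunit of the GABA-A receptor, rose by 1.43. Nfe2l2, which encodes the oxidative stress regulator NRF2, had 9.46, 9.37 and 9.77 at P21, against 8.12, 8.12 and 8.18 at P15, a change of 1.39 (SE 0.10). Ppargc1b, a coactivator of mitochondrial genes, had 10.71, 10.76 and 11.16 at P21, against 9.50, 9.44 and 9.53 at P15, also a change of 1.39 (SE 0.12). Tmod1, a cap of actin filaments, rose by 1.42 and Resp18, a protein of endocrine granules, by 1.38. That the 3 P21 arrays lay above the 3 P15 arrays was a condition for naming the 15 largest rises, so it adds no support. None of the 15 lost its call in any alternative run.

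**Figure D2:**
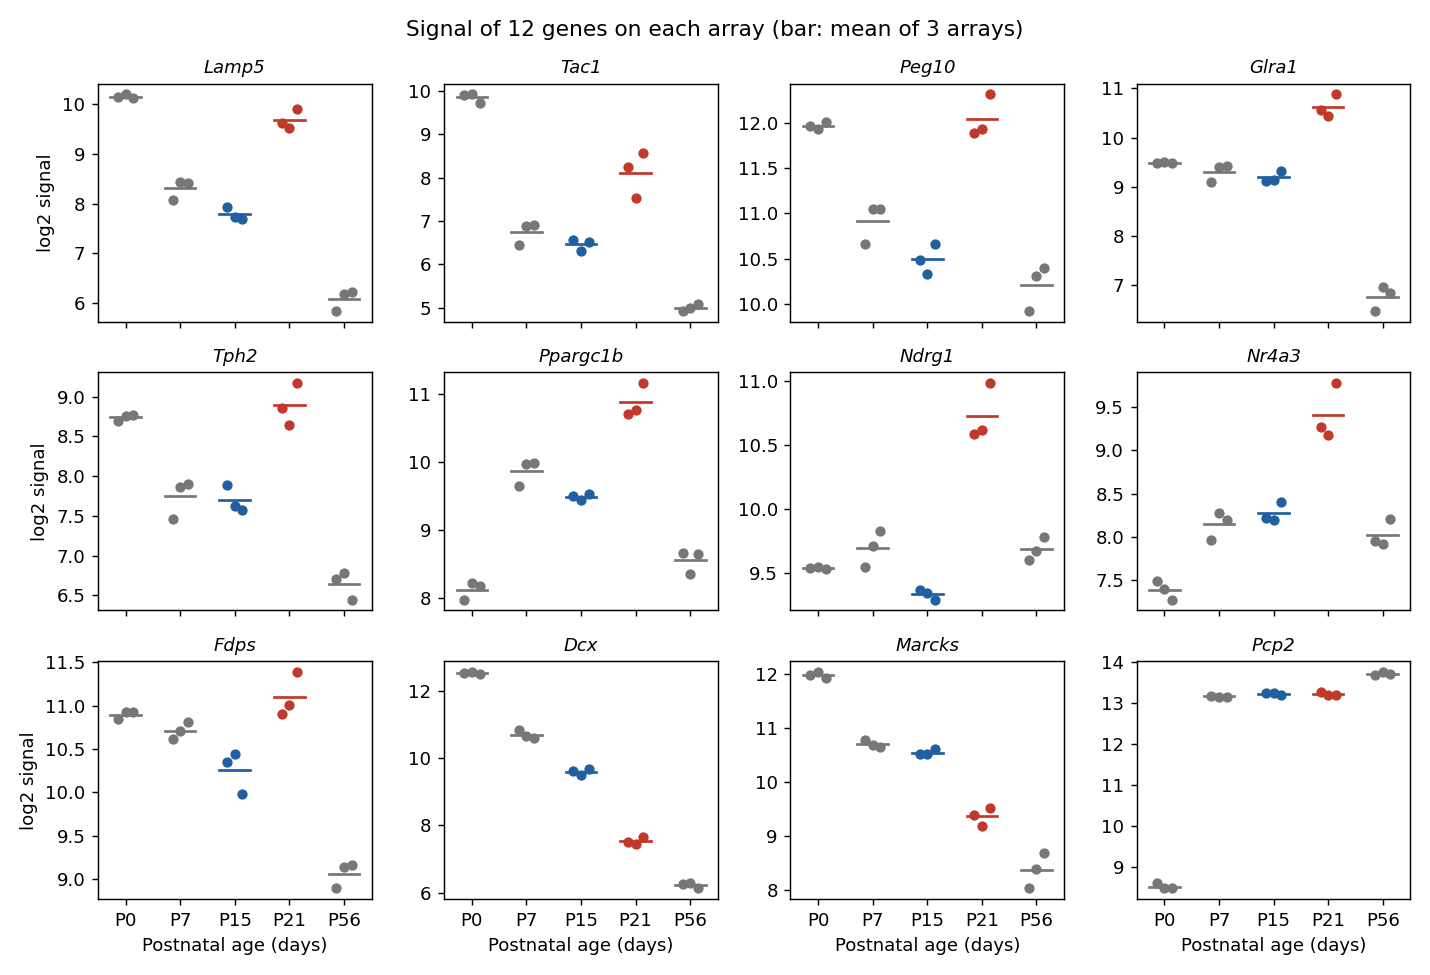
Log2 signal of 12 genes on each of the 15 arrays (points, 3 per age in days, with the mean of the 3 as a bar), with P15 in blue, P21 in red and the other ages in grey. The vertical axes differ between genes and do not start at 0. Lamp5 stands at 9.69 at P21 and 7.79 at P15, Dcx at 7.54 at P21 and 9.59 at P15, and Pcp2 at 13.22 at both.

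The plot of single genes gives the other ages too, of which the P0 arrays stood apart, with a mean of 9.61 for the Purkinje cell markers against 12.39 to 12.58 at the 4 later ages. Lamp5 averaged 10.15 at P0, 8.31 at P7, 7.79 at P15, 9.69 at P21 and 6.09 at P56. Glra1 averaged 9.49, 9.30, 9.19, 10.63 and 6.75 at these ages. P21 was thus the highest age for Glra1 and the second highest for Lamp5, and both were lowest at P56. For Ndrg1, a gene of oligodendrocytes and hypoxia, the means were 9.54 at P0, 9.69 at P7, 9.34 at P15, 10.73 at P21 and 9.69 at P56, with P21 alone above 10.

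Most genes on a list known from monoamine, cholinergic and VGLUT2 neurons, many of which have their cell bodies in the brainstem, were higher at P21. This list, and those of neuropeptides and Hox genes, were added after values were seen. Of 21 measured genes, 14 were called higher (66.7%, against 10.5% of all genes) and 0 lower, with a median change of 0.56. Their mean signal was 7.36, 7.38 and 7.59 at P21, against 6.87, 6.88 and 6.88 at P15, so the ages did not overlap. The mean of the list was 8.22 at P0, 7.05 at P7 and 6.46 at P56, so the P21 level lay above those of P7, P15 and P56 and below that of P0. In bulk RNA, more or fewer cells of a type and more or less RNA per cell cannot be told apart, here and in every list below. How much of this RNA came through tagged ribosomes was not measured, and the part of other tissue in the pools was not tested.

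The largest rises on the list were of Ddc, Tph2 and Slc18a2, which act in making and storing serotonin, Ddc and Slc18a2 also serving other amines. Ddc, the decarboxylase that makes serotonin and dopamine, had 8.40, 8.39 and 8.68 at P21, against 7.18, 7.12 and 6.88 at P15, a rise of 1.43 (SE 0.14, adjusted p 4.11e-06). Tph2, the rate-limiting enzyme of serotonin synthesis in neurons, had 8.86, 8.64 and 9.17 at P21, against 7.89, 7.62 and 7.57 at P15, a rise of 1.19 (SE 0.14, adjusted p 1.71e-05). Slc18a2, the vesicular monoamine transporter, had 7.94, 7.97 and 8.46 at P21, against 7.01, 6.99 and 6.95 at P15, a rise of 1.14. For all 3 genes the ages were apart. Slc6a4, the serotonin transporter, rose by 0.63, and Htr1a, a serotonin receptor, by 0.56. Maob, which breaks down amines, rose by 1.04.

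Genes of other transmitters on that list rose too. Slc17a6, the vesicular glutamate transporter VGLUT2 of brainstem and cerebellar nuclei neurons, had 9.63, 9.56 and 9.82 at P21, against 8.76, 8.61 and 8.72 at P15, and rose by 0.97 (SE 0.11, adjusted p 1.61e-05). Dbh, the enzyme that makes noradrenaline, rose by 0.94 and its transporter Slc6a2 by 0.46. The cholinergic genes Slc5a7 (choline uptake), Slc18a3 (vesicular loading) and Chat (synthesis) rose by 0.93, 0.82 and 0.37, with the P15 level of Chat below the lower quartile. Th, which makes the precursor of dopamine and noradrenaline, had a difference of −0.04 (adjusted p 0.871), and Slc6a3, the dopamine transporter, stood at −0.01, and neither was called. Of the 35 Hox genes measured, whose expression marks hindbrain and spinal cord behind the cerebellum, 2 were higher (Hoxa5 by 0.58, Hoxb5 by 0.56), 0 were lower and 15 lay below the lower quartile at both ages. The share higher, 5.71%, was below the 10.5% of all genes.

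Of 29 genes of neuropeptides and their granules, 12 rose and 3 fell, and 9 rose without P21 replicate 3. Sst, the peptide somatostatin, had 10.55, 10.63 and 10.77 at P21, against 9.36, 9.20 and 9.50 at P15. It rose by 1.30 (SE 0.09, adjusted p 2.37e-07), 2.46-fold, with no overlap. Pcsk1, a protease that cuts peptide precursors, rose by 0.86, Npy by 0.71 and Penk, the enkephalin precursor, by 0.56. Adcyap1, the peptide PACAP, rose by 0.59. Nppc, the C-type natriuretic peptide, had 9.56, 9.73 and 9.29 at P21, against 10.37, 10.36 and 10.16 at P15, a fall of 0.77 (SE 0.10, adjusted p 7.05e-05). Uts2b, a urotensin peptide, fell by 0.94 and the granule protein Chga by 0.24.

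**Figure D3:**
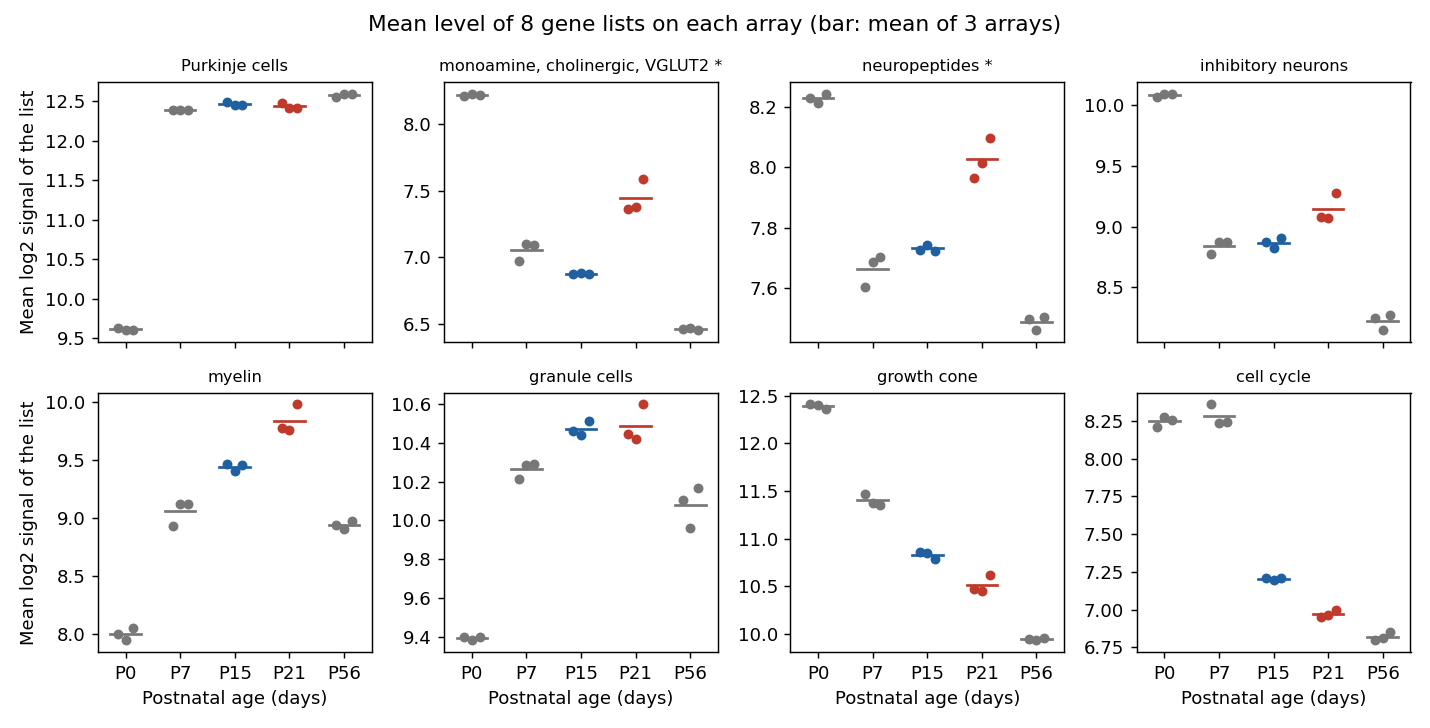
Mean log2 signal of 8 gene lists on each of the 15 arrays (points, 3 per age in days, with their mean as a bar), with P15 in blue and P21 in red. The asterisk marks the lists added after values were seen, and the vertical axes differ and do not start at 0. The Purkinje cell list is level (12.44 at P21, 12.47 at P15), the monoamine, cholinergic and VGLUT2 list is higher at P21 (7.44 against 6.88) and the growth cone list lower (10.51 against 10.83).

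Markers of cerebellar interneurons and of inhibitory neurons were called higher for 7 of 18 genes and lower for 1. The 7 include Eomes (0.49), which does not mark inhibitory neurons, although the figures label the list by these. Slc6a5, the glycine transporter GlyT2 of glycinergic neurons, had 10.13, 10.30 and 10.62 at P21, against 9.44, 9.36 and 9.19 at P15, and rose by 1.02 (SE 0.11, adjusted p 1.37e-05). Sorcs3, a sorting receptor, rose by 0.58, Lgi2, a secreted synaptic protein, by 0.50 and Sst and Npy as above. Prkcd, a protein kinase C, fell by 0.33. The mean of the list was 9.07 to 9.27 on the P21 arrays and 8.82 to 8.90 on the P15 arrays.

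Receptors for GABA and glycine moved by subunit. Of 26 genes of these receptors and their anchor, of GABA synthesis and breakdown, of transmitter transport and of chloride transport, 9 rose and 1 fell. The 9 included the transmitter transporters Slc6a5 (1.02) and Slc6a11 (0.42). Beside Glra1, the glycine receptor subunit Glra3 had 6.42, 5.93 and 6.51 at P21, against 5.48, 5.33 and 5.61 at P15, a rise of 0.81 (SE 0.13) from a P15 level under the lower quartile. Glra2, the subunit of the embryonic glycine receptor, had 7.83, 7.45 and 7.96 at P21, against 8.47, 8.34 and 8.66 at P15, a fall of 0.74 (SE 0.12, adjusted p 0.000465). Glra1 and Glra3 were thus higher and Glra2 lower on every P21 array. Gabra5 rose by 0.72 and Gabrg3 by 0.53, both subunits of GABA-A receptors. Gad1 and Gad2, which make GABA, had differences of 0.13 and 0.04, and Slc12a5 and Slc12a2, which set the chloride gradient, 0.07 and 0.08, and none of these 4 was called.

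The glutamate receptor genes split, with 6 of 31 higher and 7 lower (4 lower without P15 replicate 3). Grid1, the delta1 receptor subunit, had 9.20, 9.06 and 9.49 at P21, against 8.66, 8.60 and 8.44 at P15, a rise of 0.68 (SE 0.10, adjusted p 0.00013). Grin2c, the NMDA receptor subunit of mature granule cells, had 8.81 to 9.19 on the P21 arrays, against 8.43 to 8.54 on the P15 arrays, and rose by 0.50 (SE 0.12). Grin2b, the subunit of immature NMDA receptors, had 7.85, 7.56 and 8.07 at P21, against 8.33, 8.26 and 8.50 at P15, and fell by 0.53 (SE 0.14, adjusted p 0.0145). The P21 and P15 arrays were apart for all 3, although the call of Grin2b was lost without P21 replicate 2 and without P15 replicate 3. Other NMDA receptor subunits did not divide this way. Grin2d, which averaged 10.24 at P0 and 7.05 at P56, rose by 0.40 (SE 0.09, adjusted p 0.00463). Grin3a and Grin2a had differences of 0.36 and 0.22 and were not called. Neto2, an auxiliary subunit of kainate receptors, fell by 0.75 and the scaffold Homer2 by 0.47. Grm8, a presynaptic glutamate receptor, rose by 0.53.

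Genes of the synapses that climbing and parallel fibres make on Purkinje cells changed in both directions. Of 39 measured, 9 rose, 6 fell and the median change was 0.03. Only 5 rose without P15 replicate 1, and 2 fell without P15 replicate 3 and 3 without P21 replicate 2 or P15 replicate 1. Cbln2, a relative of the cerebellin that joins parallel fibres to Purkinje cells, had 7.34, 7.26 and 7.75 at P21, against 6.64, 6.68 and 6.64 at P15, a rise of 0.80 (SE 0.09, adjusted p 2.49e-05). Shank1, a postsynaptic scaffold, rose by 0.38 and Gna11, a G protein subunit of the receptor pathway used in climbing fibre withdrawal, by 0.40. Sema3a, which acts in the upkeep of climbing fibres, fell by 0.39, Plxnc1, a semaphorin receptor, by 0.34 and the scaffold Homer1 by 0.34.

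Genes of vesicle release rose without a called fall, with 11 of 32 higher, 6 without P21 replicate 3 and 7 without P15 replicate 3. Sv2c, a vesicle glycoprotein, had 10.31, 10.30 and 10.54 at P21, against 9.06, 8.96 and 9.02 at P15. The rise of 1.37 (SE 0.12, adjusted p 1.39e-06) is the largest of the list, and the ages were far apart. Doc2a, a calcium sensor of spontaneous release, rose by 0.67, and Unc13c and Unc13a, which prime vesicles, by 0.65 and 0.51.

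Ion channel genes changed in both directions. Of 38 voltage-gated sodium and potassium channel genes, 10 rose and 4 fell, beside 10.5% and 6.93% of all genes. Kcnc2, the fast potassium channel Kv3.2, had 7.91, 7.76 and 8.21 at P21, against 6.97, 6.82 and 6.76 at P15, a rise of 1.11 (SE 0.12, adjusted p 1.23e-05). Hcn2, a channel of the hyperpolarisation-activated current, rose by 0.61, and Kcnmb4, a subunit of calcium-activated BK channels, by 0.49. Of 33 genes of calcium channels, pumps and buffers, 7 rose (4 without P21 replicate 3) and 4 fell. Ocm, a calcium buffer, had 8.41, 8.41 and 8.27 at P21, against 9.18, 9.18 and 9.22 at P15, and fell by 0.83 (SE 0.08, adjusted p 4.69e-06). Necab2, a calcium-binding protein, fell by 0.76, and the T-type channel gene Cacna1i rose by 0.54.

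Activity-regulated early genes were called higher for 13 of 40 and lower for 3, with a median change of 0.15. The NR4A nuclear receptors rose together. Nr4a3 had 9.27, 9.18 and 9.78 at P21, against 8.22, 8.20 and 8.41 at P15, a rise of 1.13 (SE 0.13, adjusted p 2.05e-05), and Nr4a1 and Nr4a2 rose by 0.87 and 0.73. Npas4, a transcription factor induced by calcium entry, had 7.38, 7.40 and 7.67 at P21, against 6.30, 6.28 and 6.68 at P15, a rise of 1.07 (SE 0.13). Dusp1, a phosphatase that turns off MAP kinases, had 10.61, 10.58 and 11.07 at P21, against 9.79, 9.72 and 9.91 at P15, a rise of 0.94 (SE 0.12). None of these overlapped. Fos rose by 0.73 and Arc by 0.56, while Egr1 and Junb both stood at 0.01 and were not called. Klf10 fell by 0.63. The count of 13 did not fall below 13 when any array was left out.

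Many early genes are known targets of CREB, which binds the cAMP response element. The promoter of Dusp1 is shown because it was the only riser, of 11 with a promoter in the table, that held the full element in the 250 bases before its start site. It lies at chr17:26508473-26508722 on the minus strand (RefSeq, build GRCm38.p6) and is given 5′ to 3′ with the element TGACGTCA in capitals.
Dusp1: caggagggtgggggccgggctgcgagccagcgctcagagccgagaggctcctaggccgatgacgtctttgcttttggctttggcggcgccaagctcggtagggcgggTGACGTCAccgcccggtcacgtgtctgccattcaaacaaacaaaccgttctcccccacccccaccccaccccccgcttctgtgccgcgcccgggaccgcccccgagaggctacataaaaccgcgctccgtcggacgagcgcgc
Of all 27025 genes with a promoter in the table, 1.77% held TGACGTCA on either strand. It was found in 3 of 31 list members with a promoter there, 1 of 11 risers among them. The other two with a match, Btg2 and Maff, had differences of 0.002 and −0.09 and were not called.

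Many genes known to respond to glucocorticoids rose, with 11 of 19 called higher and 0 lower, and a median change of 0.35. Pdk4, a kinase that shuts off pyruvate oxidation, had 8.76, 8.48 and 8.86 at P21, against 7.37, 7.44 and 7.43 at P15, a rise of 1.28 (SE 0.09, adjusted p 3.04e-07). Zbtb16, a transcription factor, had 9.34, 9.24 and 9.77 at P21, against 8.25, 8.30 and 8.50 at P15, a rise of 1.10 (SE 0.13). Sgk1, a kinase, had 10.60, 10.39 and 10.63 at P21, against 9.96, 9.95 and 9.77 at P15, a rise of 0.65 (SE 0.08, adjusted p 2.43e-05). The P21 arrays were above the P15 arrays in all 3. Ddit4, an inhibitor of mTOR, rose by 0.60. Tsc22d3 and Klf9, 2 further targets of the hormone's receptor, had differences of 0.20 and −0.22 (adjusted p 0.143 and 0.0618) and were not called. The mean of the list was 9.15 to 9.20 on the P21 arrays and 8.80 to 8.87 on the P15 arrays. Hormone levels are not given in the labels.

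Per1, which is both a clock gene and an early response gene, was on 3 of the lists. It had 10.23, 10.19 and 10.47 at P21, against 9.76, 9.77 and 9.87 at P15, a rise of 0.50 (SE 0.08, adjusted p 0.000357). Of 16 clock genes, 4 were called higher and 2 lower, but only 1 higher without P15 replicate 3. Ciart, a repressor of the clock, fell by 0.36 and Nr1d2 by 0.23. The time of day of collection is not given in the labels. The Per1 promoter at chr11:69098699-69098948 on the plus strand (RefSeq, GRCm38.p6) is shown because E-boxes (CACGTG, in capitals) are where CLOCK and BMAL1 bind.
Per1: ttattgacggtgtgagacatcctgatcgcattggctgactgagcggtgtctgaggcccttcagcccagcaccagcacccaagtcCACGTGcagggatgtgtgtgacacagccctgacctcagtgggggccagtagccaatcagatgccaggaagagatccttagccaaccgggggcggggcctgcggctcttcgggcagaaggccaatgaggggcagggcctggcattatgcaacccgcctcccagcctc
Of all 27025 genes with a promoter in the table, 6.86% held the E-box, which reads the same on both strands. It was found in 5 of 15 clock genes with a promoter there, 1 of 4 risers among them.

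Many myelin genes rose. Of 29 genes listed for myelin and mature oligodendrocytes, 18 were called higher (62.1%) and 0 lower, with a median change of 0.36, and 13 were higher without P21 replicate 3. The 29 include Gjd2, which encodes a neuronal connexin and was not called (0.25). Ndrg1 had 10.59, 10.62 and 10.98 at P21, against 9.37, 9.35 and 9.29 at P15, a rise of 1.39 (SE 0.10, adjusted p 2.15e-07). Aspa, the enzyme that frees acetate for myelin lipids, had 9.19, 8.93 and 9.52 at P21, against 8.24, 7.91 and 8.14 at P15, a rise of 1.12 (SE 0.14). Mal, a proteolipid of compact myelin, had 11.02, 10.99 and 11.33 at P21, against 10.30, 10.38 and 10.34 at P15, a rise of 0.77 (SE 0.11, adjusted p 0.000115). No ages overlapped for these genes. Ppp1r14a, an inhibitor of myosin phosphatase, rose by 1.01 and Klk6, a protease of oligodendrocytes, by 0.73. Mbp and Mog, components of the sheath, had differences of 0.14 and 0.29 and were not called. The list mean was 9.78, 9.76 and 9.98 at P21, against 9.47, 9.41 and 9.45 at P15.

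Precursors of oligodendrocytes gave a mixed result. Of 17 markers, 4 rose and 2 fell, beside 10.5% and 6.93% of all genes. Only 1 rose without P21 replicate 3 and 2 without P21 replicate 2, P15 replicate 2 or P15 replicate 3. Olig1, a transcription factor of the whole lineage, had 10.20, 10.13 and 10.41 at P21, against 9.82, 9.82 and 9.76 at P15, a rise of 0.45 (SE 0.08, adjusted p 0.00088). The receptor phosphatase Ptprz1 fell by 0.48 and the growth factor Bmp4 by 0.36, in a call lost without P15 replicate 3. Of 19 neurofilament and node genes of myelinated axons, 3 rose and 1 fell, near the 10.5% and 6.93% of all genes. Only 1 rose without P21 replicate 3 or without any of the P15 replicates. Nefm, the medium neurofilament, rose by 0.31.

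Astrocyte and Bergmann glia genes changed in both directions. Of 29 markers, 7 rose and 6 fell. Clu, a secreted chaperone, had 10.37, 10.34 and 10.42 at P21, against 9.66, 9.59 and 9.53 at P15, a rise of 0.78 (SE 0.07, adjusted p 2.55e-06). Glul, glutamine synthetase, had 11.97, 11.77 and 12.09 at P21, against 11.37, 11.33 and 11.12 at P15, a rise of 0.67 (SE 0.09). Fabp7, a lipid-binding protein of radial and Bergmann glia, had 12.33, 12.15 and 12.35 at P21, against 13.02, 12.97 and 13.04 at P15. It fell by 0.73 (SE 0.08, adjusted p 8.18e-06), as did Tnc, a matrix protein of immature glia, by 0.79 and the growth factor Gdf10 by 0.72. The ages were apart in each of these 5 genes.

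Other cells gave smaller counts. Of 22 microglia genes 5 rose (2 without P21 replicate 3), of which Laptm5, a lysosomal protein, rose by 0.51, and 5 of the 22 lay below the lower quartile at both ages. Of 25 endothelial and mural genes 3 rose (12.0%) and 1 fell (4.00%), near the 10.5% and 6.93% of all genes, with the pericyte protein Vtn higher by 0.70, and 1 rose without P21 replicate 2, P21 replicate 3 or P15 replicate 3. Of 23 genes of the meninges and choroid plexus 4 rose, beside 10.5% of all genes, led by the matrix protein Aebp1 at 0.95. Both red cell genes measured were higher. Alas2, the first enzyme of haem synthesis in red cells, had 7.67, 7.72 and 8.22 at P21, against 6.43, 6.42 and 6.58 at P15, a rise of 1.39 (SE 0.11, adjusted p 1.04e-06), and Slc4a1, the anion exchanger, rose by 0.31 in a call lost without P21 replicate 2, P21 replicate 3 or P15 replicate 1. Of 16 genes of the interferon response and antigen presentation 4 rose and 1 fell, beside 10.5% and 6.93% of all genes. Ifit3 and Oasl2, both induced by interferon, were each higher by 0.62.

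**Figure D4:**
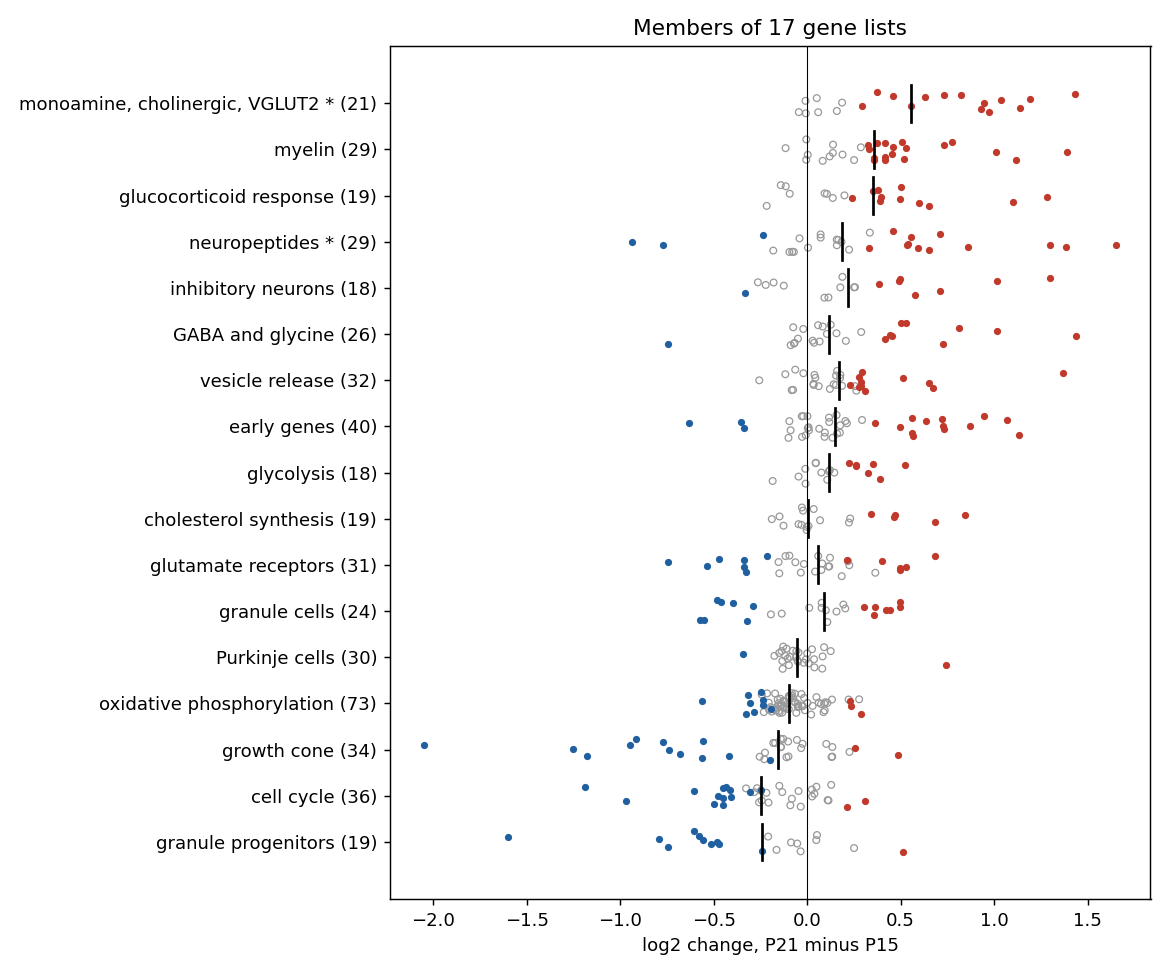
Change (log2, P21 minus P15, horizontal axis) of each measured member of 17 gene lists (rows, number measured in brackets). Red points were called higher, blue points called lower, open circles were not called and the black bar is the median of the list. The asterisk marks lists added after values were seen, and the medians run from 0.56 for the monoamine, cholinergic and VGLUT2 list to −0.24 for the cell cycle and granule progenitor lists.

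Genes of cholesterol synthesis split between a few risers and a majority that was not called. Of 19 measured, 5 rose and 0 fell, and the median change was 0.01. Fdps, which makes farnesyl diphosphate, had 10.91, 11.01 and 11.39 at P21, against 10.35, 10.44 and 9.98 at P15, a rise of 0.84 (SE 0.12, adjusted p 0.000166). Fdft1, the squalene synthase, had 11.36, 11.31 and 11.39 at P21, against 10.68, 10.66 and 10.67 at P15, a rise of 0.69 (SE 0.07, adjusted p 3.57e-06), and its other probe set gave 0.64. Hmgcs1, the synthase before the rate-limiting step, had 10.99, 10.96 and 11.28 at P21, against 10.65, 10.62 and 10.55 at P15, a rise of 0.47 (SE 0.08). The 3 genes were higher on every P21 array, and all 5 were called whichever array was left out. Msmo1, a late sterol oxidase, rose by 0.46 and Srebf2, the transcription factor of the pathway, by 0.34.

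SREBF2 binds the sterol regulatory element, and Hmgcs1 is a classic target. Its promoter at chr13:119690101-119690350 on the plus strand (RefSeq, GRCm38.p6) is shown with the match to TCACNCCAC in capitals.
Hmgcs1: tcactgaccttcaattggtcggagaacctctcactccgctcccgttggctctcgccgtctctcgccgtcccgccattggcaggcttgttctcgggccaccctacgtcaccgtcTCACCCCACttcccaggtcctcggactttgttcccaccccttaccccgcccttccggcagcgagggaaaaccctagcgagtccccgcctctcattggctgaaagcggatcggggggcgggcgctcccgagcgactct
Of all 27025 genes with a promoter in the table, 1.22% held the motif on either strand. It was found in 1 of 15 list members with a promoter there, in 1 of 3 risers.

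Among genes of energy supply, glycolysis had called rises only and oxidative phosphorylation more falls than rises. Of 18 glycolysis genes 7 rose and 0 fell, and 4 rose without P21 replicate 3 or P15 replicate 3. Pfkm, the muscle form of phosphofructokinase, had 11.72, 11.76 and 11.81 at P21, against 11.38, 11.32 and 11.02 at P15, a rise of 0.53 (SE 0.09, adjusted p 0.000486). Its paralogs Pfkl and Pfkp rose by 0.39 and 0.35 and the hexokinase Hk1 by 0.32, so all 3 phosphofructokinase genes were higher. Of 73 genes of oxidative phosphorylation 3 rose, a smaller share than the 10.5% of all genes, and 9 fell, against 6.93% of all genes. With array medians set to 0, 0 rose and 19 fell. The rises were 0 without P21 replicate 1 or P15 replicate 3 and 1 without P21 replicate 2, and the falls were 4 without P15 replicate 1 and 5 without P21 replicate 2, P15 replicate 2 or P15 replicate 3. Ndufs5, a subunit of complex I, had 10.39, 10.42 and 10.33 at P21, against 10.94, 10.94 and 10.95 at P15, a fall of 0.56 (SE 0.08, adjusted p 8.4e-05). Of 38 genes of cytosolic ribosomal proteins 0 rose and 7 fell, with 3 lower without P21 replicate 3 or P15 replicate 1 and 4 without P15 replicate 2, and Rpl23 fell the most, by 0.45. Many genes of these last lists have near-identical pseudogenes, which a short probe can read as well.

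Heat shock and folding genes were called higher for 9 of 26 and lower for 3 (1 without P21 replicate 2, P15 replicate 1 or P15 replicate 3). Bag3, a partner of HSP70, rose by 0.76 and Hspb8, a small heat shock protein, by 0.63. Hspb1, another small heat shock protein, had 9.01, 9.07 and 9.04 at P21, against 10.14, 10.12 and 10.04 at P15, and fell by 1.06 (SE 0.07, adjusted p 2.15e-07). The ages stood wide apart, and a second probe set gave −1.03. Of 15 thyroid hormone receptors and targets 3 rose and 0 fell, with Aldh1a1, which makes retinoic acid, higher by 0.64 and Hr, a corepressor, by 0.35 in a call lost in 5 of 15 alternatives.

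The largest fall was that of Dcx, the microtubule protein of migrating and immature neurons. It had 7.51, 7.45 and 7.65 at P21, against 9.61, 9.48 and 9.66 at P15. The fall of 2.05 (SE 0.08, adjusted p 1.74e-10) means that P15 was 4.13-fold higher. Dcx averaged 12.52 at P0, 10.69 at P7, 9.59 at P15, 7.54 at P21 and 6.24 at P56, so each age was below the one before. Nhlh1, a transcription factor of newborn granule neurons, had 6.25, 6.14 and 5.82 at P21, against 7.64, 7.60 and 7.77 at P15, a fall of 1.60 (SE 0.12, adjusted p 2.75e-07). Yeats2, a reader of acylated histones, had 10.04, 10.09 and 10.00 at P21, against 11.45, 11.36 and 11.42 at P15, a fall of 1.36 (SE 0.08). Zfp57, which keeps imprinted regions methylated, had 7.62, 7.44 and 7.53 at P21, against 8.82, 8.82 and 8.91 at P15, a fall of 1.32 (SE 0.07). In none of these did the ages meet, which the naming rule required.

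Further named falls were Rcor2, a corepressor of neural progenitors, by 1.06, Draxin, an axon guidance protein, by 1.05, Crygs, a crystallin, by 1.11 and Ppp1r14c, a phosphatase inhibitor, by 1.00. Malat1, a nuclear long noncoding RNA, had 9.81, 9.52 and 10.72 at P21, against 11.16, 11.07 and 11.12 at P15. It fell by 1.10 (SE 0.22, adjusted p 0.00186), with P21 replicate 3 about 1 unit above the other two. Cdk12, a kinase of RNA polymerase II, fell by 1.00 with a second probe set at −0.29, and Taf1d, a factor of ribosomal RNA transcription, by 1.10 with other probe sets at −0.09 to −0.78, so their size depends on the probe set.

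Some genes of growth cones and immature neurons fell, with 12 of 34 called lower (35.3%, against 6.93% of all genes) and 2 higher. Marcks, which ties actin to the membrane, had 9.39, 9.18 and 9.52 at P21, against 10.51, 10.51 and 10.60 at P15, a fall of 1.18 (SE 0.12, adjusted p 7.31e-06). Its relative Marcksl1 had 7.91, 7.57 and 7.95 at P21, against 9.10, 9.06 and 9.04 at P15, a fall of 1.25 (SE 0.15). Both were lower on every P21 array. Sox11, a transcription factor of immature neurons, fell by 0.95, Tmsb10, which binds actin monomers, by 0.91 and Basp1, a membrane protein of growth cones, by 0.77. Fscn1, which bundles actin, rose by 0.49.

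Cell cycle genes were called lower for 13 of 36 and higher for 2. Ccna2, a cyclin of S and G2 phase, had 6.62, 6.01 and 6.57 at P21, against 7.68, 7.40 and 7.68 at P15, a fall of 1.19 (SE 0.14, adjusted p 1.91e-05). Mki67, the proliferation antigen, had 5.77, 5.73 and 5.89 at P21, against 6.89, 6.54 and 6.85 at P15, a fall of 0.97 (SE 0.09) to a level under the lower quartile. No arrays of the 2 ages overlapped for these. Aurkb, a mitotic kinase, fell by 0.60 and Top2a, which untangles DNA, by 0.50. The mean of the list was 6.97 ± 0.02 at P21 and 7.21 ± 0.01 at P15 (SD, n = 3 arrays each).

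Granule cell genes were read in separate lists for progenitors and mature cells. Of 19 progenitor genes 10 were lower and 1 higher, with a median change of −0.24. Beside Nhlh1, Insm1, a factor of newborn neurons, had 7.49, 7.77 and 7.91 at P21, against 8.47, 8.47 and 8.60 at P15, a fall of 0.79 (SE 0.16, adjusted p 0.00204). Mfap4, a matrix protein, fell by 0.74, and Sema6a, which governs the inward migration of granule cells, by 0.58. Of 24 genes of mature granule cells 7 rose and 7 fell, and 4 rose without P21 replicate 3 or P15 replicate 3. Tiam1, an exchange factor for Rac, rose by 0.50 and Kcnd2, a potassium channel, by 0.42, whereas Zic4 and Neurod2, transcription factors of the lineage, fell by 0.57 and 0.48, with a second probe set of Zic4 at 0.02. The list mean was 10.45, 10.42 and 10.60 at P21, against 10.46, 10.44 and 10.51 at P15, so the ages overlapped.

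Of 48 axon guidance genes 8 rose and 9 fell, beside 10.5% and 6.93% of all genes, the falls being 5 without P15 replicate 1. Slit1, a repellent, rose by 0.62, and Sema3e by 0.57, while the ephrin receptor Epha8 fell by 0.49. Of 22 genes of the perineuronal nets and their matrix 5 rose (3 without P21 replicate 1 or P15 replicate 3) and 3 fell. Acan, the core proteoglycan of nets, had 6.58, 6.60 and 6.62 at P21, against 6.09, 6.05 and 6.09 at P15, a rise of 0.52 (SE 0.07, adjusted p 0.000118), close to the lower quartile. Timp2, a protease inhibitor, rose by 0.61.

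Chromatin genes were called in both directions. Of 29 Polycomb and H3K27 factors 3 rose (10.3%, against 10.5% of all genes) and 4 fell (13.8%, against 6.93%), the falls being 1 without P21 replicate 3 or P15 replicate 3 and 2 without P21 replicate 2. Ezh1, the H3K27 methyltransferase of non-dividing cells, had 10.80, 10.82 and 10.86 at P21, against 10.06, 10.03 and 9.93 at P15, a rise of 0.82 (SE 0.07, adjusted p 1.27e-06). Cbx7, a reader of that mark, rose by 0.51. Of 23 genes of DNA methylation and demethylation 4 rose (17.4%) and 2 fell (8.70%), among them Gadd45b, which acts in demethylation and is an early gene, higher by 0.72, and Tet2, which oxidises methylcytosine, lower by 0.38. Of 4 sex-linked transcripts measured, 2 from the Y chromosome were lower, Eif2s3y by 0.69 and Uty by 0.54, and Kdm5d (−0.15) and Xist (−0.13) were not called. Xist averaged 6.09 at P21 and 6.22 at P15, just above the array lower quartiles, against 11.89 at P0. The sex of the pooled animals is not given in the labels, and its part in other changes was not tested.

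Small RNA genes gave few calls. Of 289 microRNA genes 0 rose and 4 fell, against 6.93% of all genes lower, and 81 of the 289 were not below the lower quartile. A probe set of such a gene can read a precursor or a host transcript, so these are not levels of mature microRNAs. Mir568 had 7.15, 6.64 and 6.86 at P21, against 7.65, 7.64 and 8.05 at P15, a fall of 0.90 (SE 0.14, adjusted p 0.000209). Mir9-1, a gene of the neural microRNA miR-9, had 7.04, 7.18 and 7.12 at P21, against 7.37, 7.56 and 7.73 at P15, a fall of 0.44 (SE 0.09, adjusted p 0.00164). In both the ages were apart. Mir186 fell by 0.57 below the lower quartile, and the host gene Mir670hg by 0.41 with overlapping arrays. The mature sequences of the 2 microRNA genes above the lower quartile (RefSeq, GRCm38.p6, 5′ to 3′) are given with the seed, bases 2 to 8, in capitals. They lie on the plus strand at chr3:88215613-88215635 and chr3:88215652-88215673 for miR-9 and chr16:43640665-43640684 for miR-568.
mmu-miR-9-5p: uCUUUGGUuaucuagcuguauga
mmu-miR-9-3p: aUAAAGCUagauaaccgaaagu
mmu-miR-568: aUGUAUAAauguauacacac
No 2 of these share a seed. Of 58 small nucleolar and other small RNA genes 1 rose and 3 fell. Rny3 of the Ro particle had 11.03, 11.07 and 12.11 at P21, against 10.73, 10.67 and 10.83 at P15. It rose by 0.66 (SE 0.21, adjusted p 0.0399), with P21 replicate 3 far above replicates 1 and 2. Snora3 fell by 0.31, Snord16a by 0.62 and Snora69 by 0.65. Both Snord16a and Snora69 lay below the lower quartile at both ages.

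The arrays of P56 and P7 share none with the comparison, so they show how the same genes differ over a longer span. Of all 19500 genes, 4793 were called higher at P56 than at P7 (24.6%) and 6811 lower (34.9%). Of the 2048 genes higher at P21 than at P15, 420 were higher at P56 (20.5%) and 1067 lower (52.1%). These make up 8.76% of all genes higher at P56 and 15.7% of all genes lower. Of the 1352 genes lower at P21, 194 were higher at P56 (14.3%) and 911 lower (67.4%), which is 13.4% of all genes lower at P56. Beside the 34.9% of all genes, the shares lower at P56 were 52.1% for genes higher at P21 and 67.4% for genes lower at P21. This describes these arrays and was not tested. Genes without a call between P56 and P7 were 561 of the 2048, 247 of the 1352 and 7896 of all 19500. How far the shared variance raised the shares was not tested. The median differences, P56 minus P7, were −0.23 for genes higher at P21, −0.50 for genes lower and −0.004 for all genes.

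The larger changes were read in the same way. Of the 69 genes that rose by at least 1 at P21, 5 were higher and 54 lower at P56 than at P7, with a median difference of −0.89. Lamp5 differed by −2.22, Glra1 by −2.55 and Tph2 by −1.10 between P56 and P7. Exceptions were Sv2c at 1.07 and Ndrg1 at −0.01, and Fam107b among the smaller rises at 1.57. Of the 15 genes that fell by at least 1, 14 were lower and 0 higher at P56, with a median of −2.49. Dcx differed by −4.45 and Marcksl1 by −3.70, while Malat1, at −0.26, was not called (adjusted p 0.32).

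**Figure D5:**
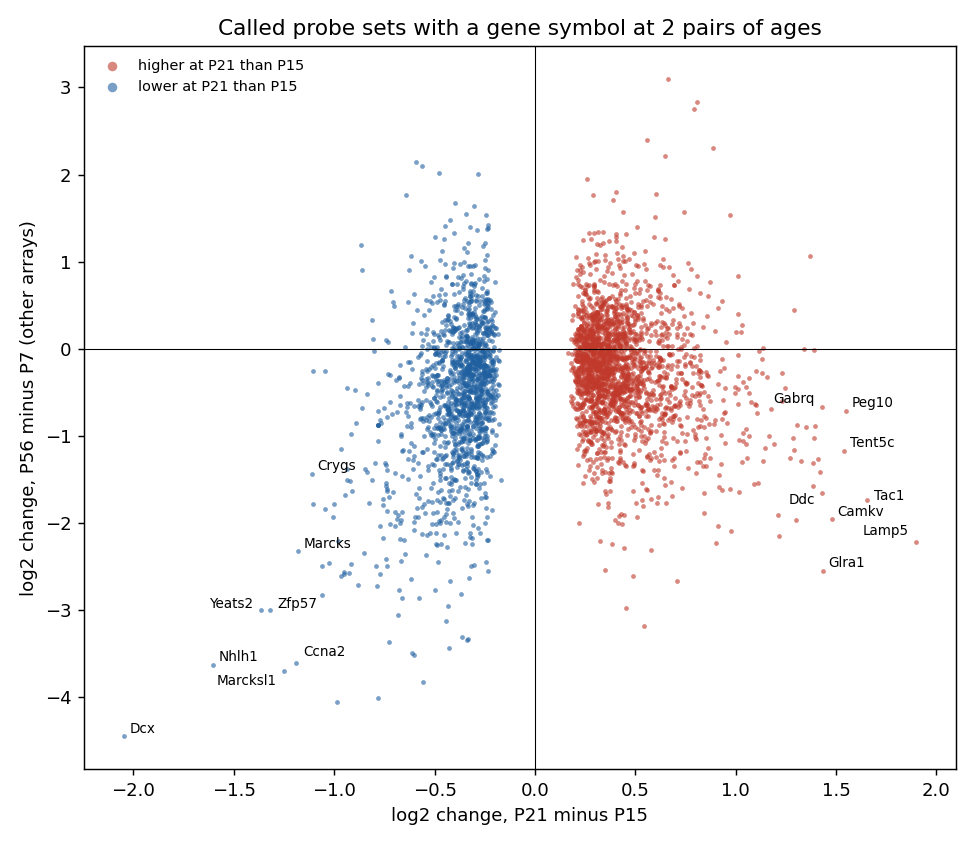
Change between P21 and P15 (log2, P21 minus P15, horizontal axis) against the change between P56 and P7 on other arrays (log2, P56 minus P7, vertical axis) for called probe sets with a gene symbol. Red points were higher and blue points lower at P21, and the 8 largest named rises and falls carry their names. The named rises lie at the lower right (Lamp5 at 1.90 and −2.22) and the named falls at the lower left (Dcx at −2.05 and −4.45).

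The lists were read over this span too. Of the 21 monoamine, cholinergic and VGLUT2 genes 2 were higher and 14 lower at P56 than at P7, of the 36 cell cycle genes 0 and 35, and of the 34 growth cone genes 2 and 30. Of the 29 genes of the myelin list 10 were higher and 10 lower, with the neuronal connexin gene Gjd2 (−2.34) among the lower. Of the 30 Purkinje cell markers 18 were higher and 7 lower. The myelin list was called higher at P21 for 18 of 29 genes, yet its mean was 9.84 at P21 and 8.94 at P56. For the Purkinje cell list the means were 12.44 at P21 and 12.58 at P56.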

How the data were processed

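RNA from pooled cerebella was purified on tagged ribosomes and hybridised to Affymetrix arrays, 3 per age at 5 ages. The values deposited by the authors are log2 signals per probe set, with the log base read from their range. Which algorithm, background correction, centring and genome build were used is not given in the sources used here; Affymetrix Power Tools is named in the submitters' processing notes. Of 22092 probe sets, 20996 carried 1 gene symbol in a platform annotation of 2016, 91 several and 1005 none there.

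Here limma 3.58.1 in R 4.3.3 fitted a mean per age on all 15 arrays (10 residual degrees of freedom), with the contrast P21 minus P15, two-sided, and Benjamini-Hochberg adjustment over all probe sets. With 3 arrays an age, 0.1 is the smallest p of an exact permutation test, and none was run. A gene was read through its brightest probe set over the 15 arrays. Genes were named by rule as the 15 largest called rises and falls with no overlap and a level above the lower quartile, passing over predicted genes, small RNAs and receptor clusters, up to 5 called genes per list, and Pcp2 and Rpl10a. Other genes were named after their values were seen. The comparison and its 38 gene lists were chosen with earlier results of these data known. Arrays give no count depth, so precision is limited by their number. Alternatives changed the normalization, prior, filter, arrays and probe set rule.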

Additional observations from a re-analysis of the deposited data

How the results depend on the processing

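With each array left out in turn, 990 to 1644 probe sets were called lower, 38 (without P21 replicate 3) to 163 (without P21 replicate 2) were higher by at least 1, and 603 to 875 genes were lower both at P21 and at P56. Without P15 replicate 1, 994 were lower and 142 were higher by at least 1. At an adjusted p under 0.01, 1459 probe sets were higher and 739 lower, with 221 genes higher and 458 lower at both spans. The change of Pcp2 turned to −0.03893 with array medians set to 0, −0.02031 without P21 replicate 1 and −0.01252 without P15 replicate 3, over a leave-out range of −0.02031 to 0.01179. Setting array medians to 0 moved the median of all probe sets to −0.033. Of 187 named genes, 152 kept direction and side of the threshold in all of up to 15 alternatives and 35 did not. Of 1140 list counts, 129 moved by more than 1.5 times. With the replicate number as a replicate block, 2277 probe sets were higher and 1523 lower. Deviations of same-numbered arrays correlated at 0.334, 0.453 and 0.0158, against −0.423 to 0.163 for differently numbered arrays. The values for replicates 1 and 2 were thus above all of the latter. The deviations of an age sum to 0, however, so high values for same-numbered arrays bring low ones for the others. The labels do not say whether a shared number marks a pair, and the main fit did not pair the arrays. Dim probe sets, 3 arrays per age and unknown pooling and batches limit every value.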
